A study of Mus musculus with 3 samples.

Results

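The genes described here encode the machinery of programmed cell death and its regulation by p53, measured in mouse brain cell cultures treated with valproate, lamotrigine or solvent. They are 47 named genes in 8 classes, found by gene symbol on the array. The list was chosen with earlier results of these data known. Of the 47, 46 had a probe, 42 were detected on at least 1 array and 39 on all 3, out of 22328 genes on the array. Bcl2a1a had no probe of that name, and Bik, Casp12, Birc3 and Nlrp3 were not well above background on any array.

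The cultures were primary cerebral cells of the C57BL6/J strain, prepared at embryonic day 18 and grown in serum-free neuronal medium. From day 10 in vitro they were treated for 24 h with 1 mM valproate, with 100 µM lamotrigine or with the solvent alone, and 0.1% DMSO was present in all 3 cultures. Valproate is an antiepileptic drug and an inhibitor of class I histone deacetylases, lamotrigine is a sodium channel blocker used against the same disease, and the study asked which neuronal genes respond to the histone deacetylase inhibitor. The labels place the lamotrigine array outside that study. There was 1 array per treatment, so the differences could not be tested against the spread between cultures, and precision is limited by the number of arrays.

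Apoptosis proceeds along a mitochondrial route, in which Bcl2 family proteins control the release of cytochrome c, and a death receptor route that starts at the cell surface. Both end in caspases, proteases that dismantle the cell. Necroptosis is a lytic death in which the kinase Ripk3 phosphorylates Mlkl, which then permeabilises the plasma membrane, and p53 is a transcription factor that switches on death genes after DNA damage and other stress. Young neurons use the mitochondrial route when trophic support is lost. The arrays measured messenger RNA only, and cell death was not measured here.

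Levels are given as scaled signal, the processed intensity of a probe divided by the 75th percentile of its array and multiplied by 100. The levels of different genes cannot be set against each other, because each probe binds with its own efficiency. A gene was detected where its probe was marked as well above background. Where only 1 array of a comparison detected a gene, the undetected side took the detection floor of its array, or the measured signal if that exceeded the floor. Such a difference is given as "at least", which holds under this rule only. The detection floor was the lowest scaled signal of any detected probe on the array. It was 3.88 with valproate, 4.63 with lamotrigine and 5.29 with DMSO. Undetected probes could lie above it, as that of Bcl2l11 did with DMSO at 7.26. The technical error was read from 399 probes with 10 spots per array. The technical SD of a log2 difference was 0.242 for a scaled signal under 25, 0.114 between 25 and 100, 0.0821 between 100 and 400, and 0.065 above 400. It comes from spots of the same array and does not cover the spread between arrays, between cultures or between RNA preparations.

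The arrays were on 1 slide, had 49.6% to 52.9% of their spots well above background and held 0 saturated spots. Marker sums of several cell types differed between the arrays. The sums are dominated by their brightest probes and are given with medians for that reason. The summed scaled signal of 12 astrocyte markers was 22540 with valproate, 42300 with lamotrigine and 43012 with DMSO, of which Aldoc alone was 10073, 25605 and 25995 in the same order. The median log2 difference of these markers for valproate against DMSO was -0.52, and 11 of 12 were below 0, while Gfap was at 0.06. The sum of 15 neuron markers was 32829, 36897 and 41799, and that of 16 proliferating cell markers was 11497, 8545 and 8660, in the same order. Of the neuron markers 11 of 15 were below 0 for valproate against DMSO (median -0.28), and of the proliferating cell markers 15 of 15 measured were above 0 (median 0.46). Among all genes 58.1% were below 0 and 40.6% above in this comparison, with a median of -0.07. In such mixed cultures fewer cells of a type and less RNA per cell cannot be told apart.

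The promoters of 4 genes are shown because these genes stood at the ends of the range among those with a promoter sequence. Ripk3 and Mlkl had the highest bounds with valproate, Endog was the lowest gene, and Hrk was the gene most separated between the drugs in the low direction. Each sequence holds the 250 bases before the start site on the coding strand, 5′ to 3′, from RefSeq on GRCm38.p6. Capitals mark the GC box, GGGCGG, on either strand. Positions are chr14:55788858-55789107 for Ripk3 (minus strand), chr8:111338206-111338455 for Mlkl (minus strand), chr2:30171274-30171523 for Endog (plus strand) and chr5:118169514-118169763 for Hrk (plus strand).
Ripk3: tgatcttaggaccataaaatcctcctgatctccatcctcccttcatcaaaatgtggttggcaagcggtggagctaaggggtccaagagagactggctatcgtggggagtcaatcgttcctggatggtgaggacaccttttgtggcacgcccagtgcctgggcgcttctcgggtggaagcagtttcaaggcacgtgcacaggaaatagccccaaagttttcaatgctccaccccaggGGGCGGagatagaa
Mlkl: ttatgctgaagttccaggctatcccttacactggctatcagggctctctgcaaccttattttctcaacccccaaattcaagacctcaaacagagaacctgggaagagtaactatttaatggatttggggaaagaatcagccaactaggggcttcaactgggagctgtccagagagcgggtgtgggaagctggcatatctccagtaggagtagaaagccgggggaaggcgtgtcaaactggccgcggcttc
Endog: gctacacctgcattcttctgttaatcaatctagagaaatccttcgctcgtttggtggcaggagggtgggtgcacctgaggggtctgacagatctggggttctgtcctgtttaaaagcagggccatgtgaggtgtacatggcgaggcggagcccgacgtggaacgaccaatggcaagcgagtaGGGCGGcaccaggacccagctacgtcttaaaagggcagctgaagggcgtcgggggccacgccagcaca
Hrk: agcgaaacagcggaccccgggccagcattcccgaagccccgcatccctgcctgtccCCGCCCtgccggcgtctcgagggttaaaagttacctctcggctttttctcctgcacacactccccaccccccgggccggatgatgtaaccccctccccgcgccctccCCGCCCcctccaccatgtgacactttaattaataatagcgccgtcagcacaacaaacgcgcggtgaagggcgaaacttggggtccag

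The Hrk window held 2 GC boxes and 21 CpG dinucleotides, that of Endog held 1 and 13, that of Ripk3 held 1 and 8, and that of Mlkl held 0 and 5. GC boxes were present in 31 of 59 promoter windows of these genes (52.5%) and in 32.7% of all 32851 windows. A p53 half-site was found in 6 of the 59 windows (10.2%), against 7.13% of all windows, in the promoters of Aen, Bax, Bmf, Mdm2, Nlrp3 and Trp53. The TATA box, TATAAA, was found in 3 of the 59 windows (5.08%), against 12.4% of all. The interferon-related GAS element, TTCNNNGAA, was in 3 of 59 (5.08%), against 7.02%, and the interferon-stimulated response element in 0 of 59, against 2.98%. All motifs were searched on both strands, and matches of different motifs may overlap. RefSeq windows were matched for 42 of the 47 genes. The 4 windows shown held none of the last 4 motifs, which says only that these letters are not in these windows.

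With valproate, 3 of 42 measured genes passed 2-fold upwards relative to DMSO, and 0 passed it downwards. They were the necroptosis kinase Ripk3, the BH3-only protein gene Pmaip1 and Perp, a membrane protein gene and p53 target. The 3 made up 7.14% of the measured genes, while among all 15255 measured genes 2.68% passed 2-fold upwards and 1.67% downwards. At 1.5-fold, 5 of the 42 genes were higher and 2 were lower, the background being 7.34% and 6.58%. The median log2 difference was 0.04 for these genes and -0.07 for all genes, and 24 of 42 were above 0 and 17 below, against 40.6% and 58.1% of all genes. Spike-in scaling added 0.35 to each difference of this comparison.

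**Figure D1:**
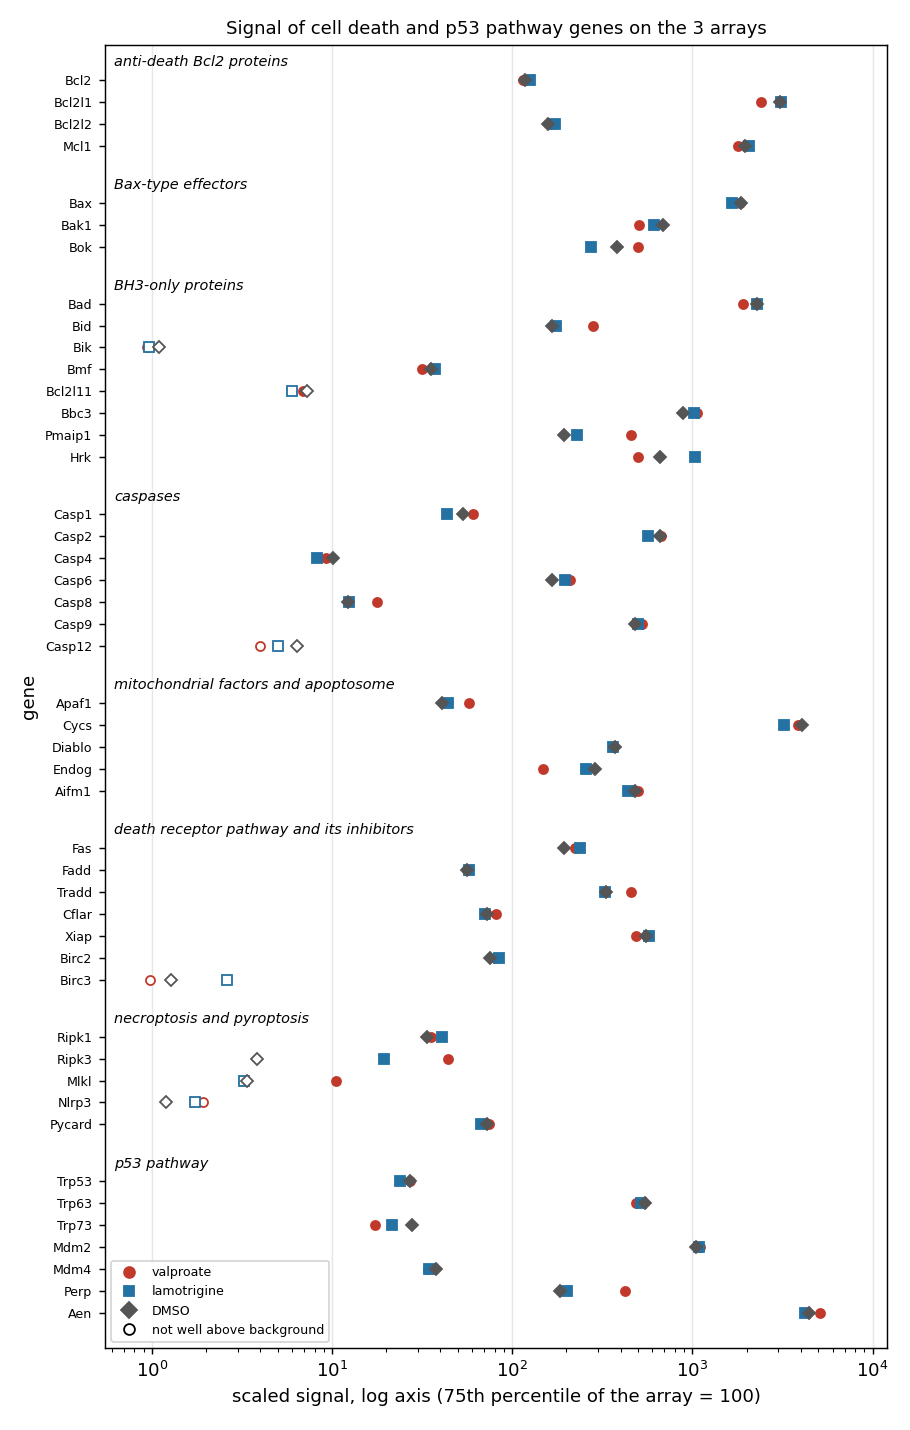
Scaled signal (log axis) of the 46 genes with a probe, by class, on the valproate, lamotrigine and DMSO arrays, 1 point per array, with open symbols where the gene was not well above background. Most triplets of points lie close together, while Ripk3, Mlkl, Pmaip1 and Perp have their valproate point to the right of both other points.

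Smaller differences could be set against the technical error. Among 39 genes detected on both arrays, 12 were higher with valproate by more than 2 technical SD, 9 were lower and 18 lay within. The background was 19.6% higher and 35.5% lower, and the shares of these genes were 30.8% and 23.1%. This error covers spots of the same array and not the spread between arrays, RNA preparations or cultures. These counts therefore describe the signals of these arrays only.

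**Figure D2:**
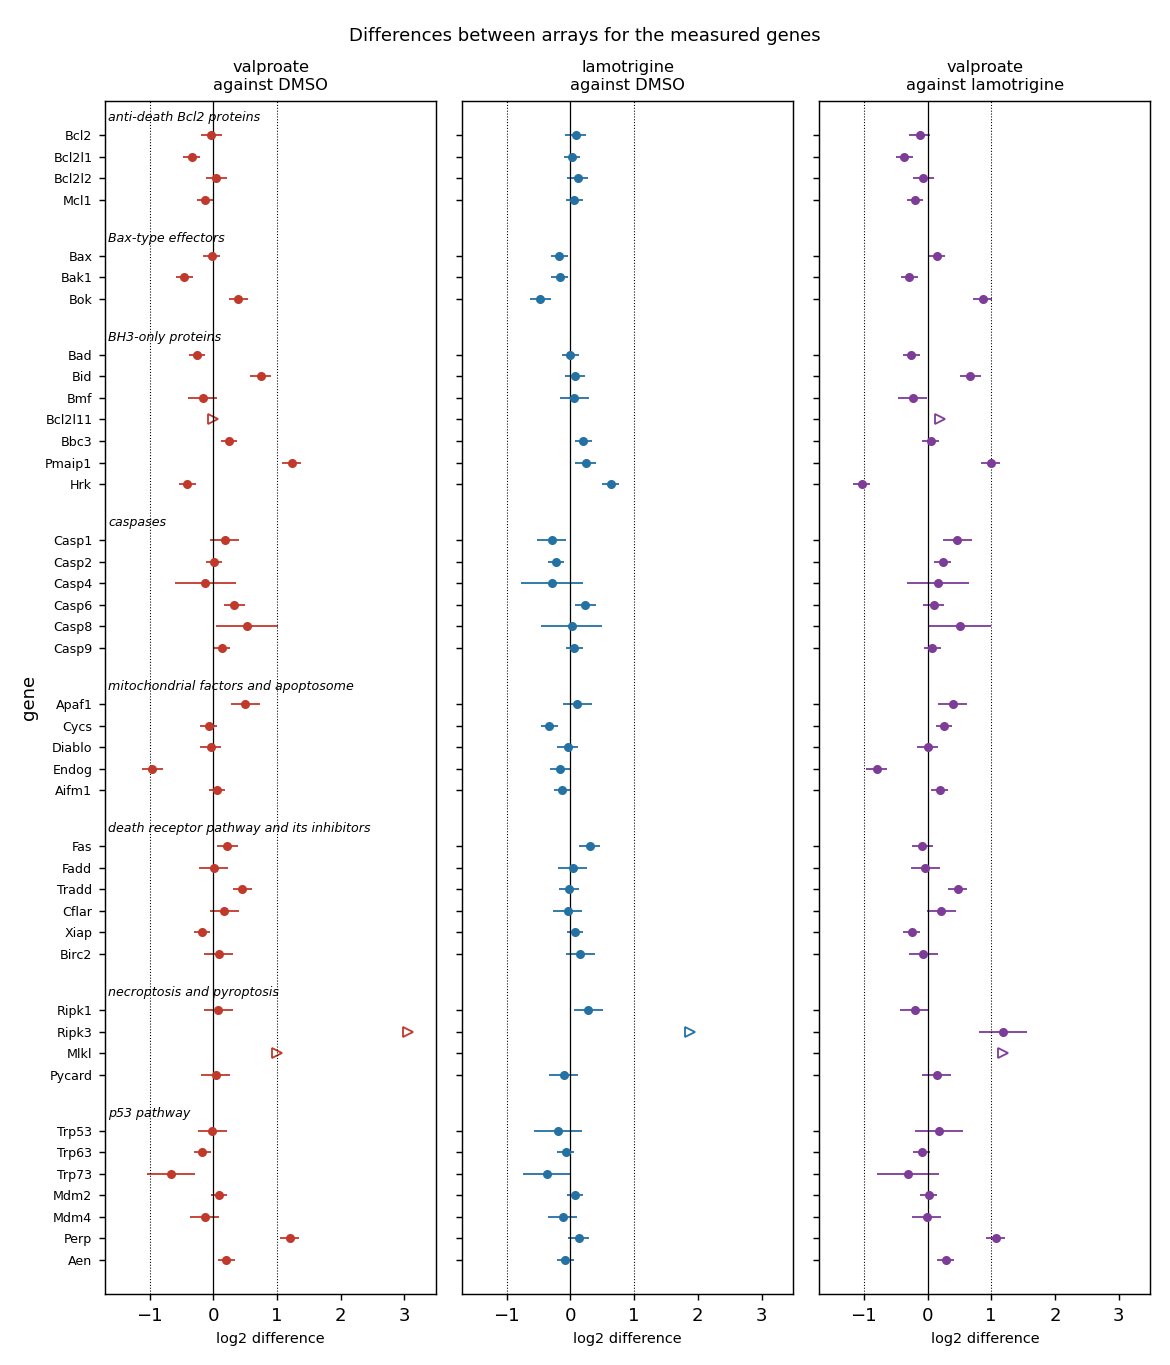
Log2 differences of the 42 measured genes in the 3 comparisons; points carry 2 technical SD on either side, open triangles are lower bounds and dotted lines mark 2-fold. Ripk3, Pmaip1 and Perp lie past the right line for valproate against DMSO, and Ripk3 alone does for lamotrigine against DMSO.

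The anti-death Bcl2 proteins bind and restrain the killers of their own family. None of the 4 measured was past 1.5-fold in any comparison. At 1.5-fold 7.34% of all genes were higher and 6.58% lower for valproate against DMSO. These shares were 1.89% and 1.22% for lamotrigine against DMSO, and 7.14% and 6.88% for valproate against lamotrigine, so 0 of 4 says little about the class. The median log2 difference of the 4 was -0.08 for valproate against DMSO, 0.07 for lamotrigine against DMSO and -0.16 for valproate against lamotrigine. Spike-in scaling turned the first median to 0.27. Bcl2l1, which encodes Bcl-xL, the survival protein of maturing neurons, had a scaled signal of 2405 with valproate, 3091 with lamotrigine and 3044 with DMSO. Its valproate level was the lowest, with a log2 difference of -0.34 to DMSO on this probe and -0.37 on its other probe. Scaling to the spike-in controls turned the first of these to 0.01.

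Mcl1, a short-lived survival protein, had 1792 with valproate, 2052 with lamotrigine and 1964 with DMSO. Bcl2 itself had 115, 125 and 118, and Bcl2l2, which encodes Bcl-w, had 164, 172 and 159, in the same order. The 3 arrays gave similar levels of these genes. For Mcl1 the log2 difference was -0.13 for valproate against DMSO, just over 2 technical SD, and -0.20 for valproate against lamotrigine.

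The Bax-type effectors form pores in the mitochondrial outer membrane. Bax had 1833 with valproate, 1656 with lamotrigine and 1869 with DMSO, and no pair of arrays was past 1.5-fold. Bak1, its partner of overlapping function, had 502, 613 and 688, a log2 difference of -0.45 for valproate against DMSO. Bok, a relative that is abundant in brain, had 502, 275 and 382 in the same order. Bok was higher with valproate than with lamotrigine by 0.87 in log2, with DMSO between the drugs (0.39 for valproate and -0.47 for lamotrigine against DMSO).

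BH3-only proteins sense stress and activate the effectors or block the anti-death proteins. Of 8 genes, 7 were measured for valproate against DMSO, and 1 was at least 2-fold higher, where 2.68% of all genes were. Pmaip1, which encodes Noxa, a p53 target that neutralises Mcl1, gave 455 with valproate, 229 with lamotrigine and 194 with DMSO. The valproate level stood apart from both others, 2.35-fold higher than DMSO (log2 1.23, technical SD 0.074) and 1.99-fold higher than lamotrigine, whose level was 1.18-fold that of DMSO. The single Pmaip1 probe lies at chromosome 18, 66625088 to 66625147 on mm9.

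Bid, the link from Casp8 to the mitochondria, had 280 with valproate, 175 with lamotrigine and 167 with DMSO. It was 1.68-fold higher with valproate than with DMSO (log2 0.75) and passed 2-fold with spike-in scaling. Bbc3, which encodes Puma, another p53 target, had 1057, 1023 and 890 in the same order, so that both drug arrays were higher than DMSO by 0.25 and 0.20 in log2.

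Hrk, a BH3-only gene known from neurons deprived of trophic factor, ran the other way. It had 502 with valproate, 1028 with lamotrigine and 665 with DMSO. Hrk was 2.05-fold lower with valproate than with lamotrigine (log2 -1.03), the sole measured gene at least 2-fold lower in that comparison, in which 2.18% of 15372 genes were. It was short of 2-fold with normexp correction (-0.97) and with spike-in scaling. The DMSO level lay between the drugs, at log2 differences of -0.41 for valproate and 0.63 for lamotrigine. Its probe lies at chromosome 5, 118639423 to 118639482 on mm9. The neuron marker sum given above was also lowest with valproate, but was lower with lamotrigine than with DMSO, and its part in the Hrk values was not tested.

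The other BH3-only genes differed less. Bad, which is held inactive by growth factor signalling, had 1919 with valproate, 2289 with lamotrigine and 2293 with DMSO. Bmf had 31.6, 37.2 and 35.6 in the same order. Bcl2l11, which encodes Bim, was detected with valproate only, at 6.92, while its undetected signals were 6.02 with lamotrigine and 7.26 with DMSO, so the 3 arrays gave no usable difference.

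The caspases showed no gene past 1.5-fold in any comparison, which says little for so few genes. The shares of all genes at 1.5-fold were 7.34% higher and 6.58% lower for valproate against DMSO. They were 1.89% and 1.22% for lamotrigine against DMSO, and 7.14% and 6.88% for valproate against lamotrigine. Over 6 measured genes the median log2 difference was 0.16 for valproate against DMSO, -0.10 for lamotrigine against DMSO (above 0 with spike-in scaling) and 0.20 for valproate against lamotrigine. Against lamotrigine all 6 were above 0 with valproate, where 46% of all genes were. Of these, Casp4 (0.17), Casp6 (0.10) and Casp9 (0.08) lay within 2 technical SD. Casp4 lay within its technical SD and was at -0.11 with normexp correction. Casp8, the initiator of the death receptor route and a brake on necroptosis, had 17.7 with valproate, 12.4 with lamotrigine and 12.2 with DMSO. Its log2 difference of 0.53 to DMSO was more than 2 technical SD, each 0.242 at this low signal, but was 0.06 with normexp correction.

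Casp9, the initiator of the mitochondrial route, had 527 with valproate, 500.4 with lamotrigine and 480 with DMSO. Casp6, an executioner linked to axon pruning, had 209, 195 and 166, and Casp2 had 666, 565 and 661, in the same order. Casp6 was higher than DMSO on both drug arrays (log2 0.33 and 0.23), and Casp2 was lowest with lamotrigine (-0.23 to DMSO). The inflammatory caspases process cytokines and gasdermins. Casp1 had 60.5 with valproate, 43.7 with lamotrigine and 53.5 with DMSO, and Casp4 had 9.25, 8.23 and 10.1. Casp12, linked to the endoplasmic reticulum in mouse, stayed at undetected signals of 4.01, 5.05 and 6.38.

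Once released, cytochrome c (Cycs) assembles with Apaf1 into the apoptosome, which activates Casp9. Apaf1 had 57.6 with valproate, 43.9 with lamotrigine and 40.7 with DMSO, which gave a log2 difference of 0.50 for valproate against DMSO that was 0.27 with normexp correction. Cycs had 3848, 3222 and 4047, lowest with lamotrigine on all 3 of its probes (log2 -0.33, -0.34 and -0.28 to DMSO). Diablo, which relieves the block on caspases, had 363, 363 and 373, and Aifm1, a mitochondrial flavoprotein that can act in the nucleus, had 501, 438 and 481. A second, dimmer Diablo probe gave 0.36 in log2 for valproate against DMSO where this one gave -0.04, so no direction is given for it.

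Endog, a mitochondrial nuclease, was the lowest of the measured genes with valproate. It gave 148 with valproate, 256 with lamotrigine and 287 with DMSO. The valproate level stood below both others, 1.94-fold lower than DMSO (log2 -0.96) and 1.73-fold lower than lamotrigine (log2 -0.79). The log2 value against DMSO ran from -0.61 with spike-in scaling to -0.96, so it stayed short of 2-fold. Its probe lies at chromosome 2, 30028411 to 30028470 on mm9.

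Death receptors recruit adaptor proteins that bring Casp8 together, and cellular inhibitors hold this route in check. Of 6 measured genes, 0 were past 1.5-fold in any comparison. Of all genes 7.34% were higher and 6.58% lower at 1.5-fold for valproate against DMSO. These shares were 1.89% and 1.22% for lamotrigine against DMSO, and 7.14% and 6.88% for valproate against lamotrigine, so 0 of 6 says little about the class. The median of the class for valproate against DMSO was 0.13. It was 0.04 when a gene's detected probes were averaged. The receptor Fas, also a p53 target, had 224 with valproate, 238 with lamotrigine and 193 with DMSO, higher on both drug arrays than with DMSO by 0.22 and 0.30 in log2. The adaptor Tradd had 456, 328 and 333, a log2 difference of 0.45 for valproate against DMSO. The adaptor Fadd had 56.2, 57.5 and 56.1, within 0.04 of each other in log2 against DMSO.

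Among the inhibitors, Xiap, which blocks caspases directly, had 485 with valproate, 576 with lamotrigine and 549 with DMSO. Birc2, a ubiquitin ligase of the receptor complex, had 80.1, 84.1 and 75.6. Cflar, which encodes the Casp8 decoy c-FLIP, had 81.7, 70.2 and 72.4 on the probe used. Its probes disagreed for valproate against DMSO, at log2 differences of 0.18, -0.29 and -0.04 on the 3 that were detected, and no direction is given for it. Birc3, a relative of Birc2, was undetected at 0.983, 2.63 and 1.28.

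Among the necroptosis genes, Ripk3 had the largest difference of all measured genes of the list, and the others differed less. Ripk3 gave 44.0 with valproate, 19.4 with lamotrigine and 3.85 with DMSO, the last not well above background. With DMSO set to the detection floor, it was at least 8.31-fold higher with valproate and at least 3.66-fold higher with lamotrigine than with DMSO. The drug arrays themselves differed 2.27-fold, higher with valproate (log2 1.18, technical SD 0.189). Ripk3 was the sole gene of the 40 measured that was at least 2-fold higher with lamotrigine than with DMSO, where 0.267% of 14987 genes were. That call was lost with normexp correction (log2 0.72), and detection required on all 3 arrays leaves Ripk3 out. Both comparisons share the DMSO array. The single Ripk3 probe lies at chromosome 14, 56403949 to 56404008 on mm9.

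Mlkl, the substrate of Ripk3, was detected with valproate only, at 10.6, against undetected signals of 3.25 with lamotrigine and 3.37 with DMSO. Its bounds were 1.99-fold higher than DMSO, just under the 2-fold threshold, and 2.28-fold higher than lamotrigine. This rests on 1 dim probe, at chromosome 8, 113835700 to 113835759 on mm9, near a signal at which the technical SD was 0.242. With normexp background correction the log2 value of Mlkl against DMSO was 0.06 and that of Ripk3 was 1.44.

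Ripk1, the kinase upstream that also serves survival signalling, had 35.4 with valproate, 40.7 with lamotrigine and 33.5 with DMSO. Pycard, the adaptor of inflammasomes, had 74.0, 66.8 and 72.0 in the same order. Neither was past 1.5-fold. The inflammasome sensor Nlrp3 was undetected at 1.93, 1.74 and 1.20. For the class, 4 genes were measured for valproate against DMSO, with a median of 0.54, and 3 for lamotrigine against DMSO, with a median of 0.28. The median of 0.54 rests on Ripk3 and Mlkl, and it was 0.03 with normexp correction and 0.06 with detection required on all 3 arrays. All 4 genes were above 0 for valproate, where 40.6% of all genes were, but with normexp correction Ripk1 and Pycard lay just under 0.

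Ripk3 and several genes of this class are known from macrophages, so microglial markers were read beside them. Of 16 markers, 8 were detected with valproate, 7 with lamotrigine and 7 with DMSO, and their summed scaled signal was 2138, 2026 and 1890. Cx3cr1, C1qa, C1qc, P2ry12, Trem2, Tyrobp, Laptm5 and Ptprc were not well above background on any array. The 8 markers measured for valproate against DMSO had a median log2 difference of 0.03, and 0 were past 1.5-fold. Of all genes 7.34% were higher and 6.58% lower at 1.5-fold.

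In the p53 pathway the transcript of p53 itself hardly differed. Trp53 had a scaled signal of 26.9 with valproate, 23.8 with lamotrigine and 27.2 with DMSO, which gave a log2 difference of -0.02 for valproate and -0.20 for lamotrigine against DMSO. Its main ubiquitin ligase Mdm2, also a target of p53, had 1108, 1095 and 1041. The related inhibitor Mdm4 had 34.3, 34.5 and 37.5, and its other, dimmer probe gave -0.63 where this one gave -0.13 for valproate against DMSO. Over the 7 genes the median was -0.02 for valproate and -0.08 for lamotrigine against DMSO, and both were above 0 with spike-in scaling.

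Perp, a p53 target that encodes a tetraspan membrane protein, had 425 with valproate, 202 with lamotrigine and 185 with DMSO. The valproate level stood apart, 2.30-fold higher than DMSO (log2 1.20) and 2.10-fold higher than lamotrigine (log2 1.07). Lamotrigine and DMSO differed by 0.13 in log2. The single Perp probe lies at chromosome 10, 18576697 to 18576756 on mm9. Aen, a p53-induced nuclease, had 5134, 4216 and 4458, with log2 differences of 0.20 and 0.22 on its 2 probes for valproate against DMSO. These probes overlap in position and are no independent measurements.

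The p53 relatives are transcription factors of the same family. Trp73, whose products act in neuronal survival, had 17.4 with valproate, 21.4 with lamotrigine and 27.6 with DMSO, which gave a log2 difference of -0.67 for valproate against DMSO with a technical SD of 0.189. Its 2 other probes were not well above background on any array. Trp63 had 485, 518 and 546 on the probe used, while its 3 other probes, between 0.943 and 2.24 over the arrays, were not well above background on any. Its value for valproate against DMSO, -0.17, turned above 0 with spike-in scaling. With 1 of 4 probes detected, the signal is given for that probe and not for the gene as a whole.

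**Figure D3:**
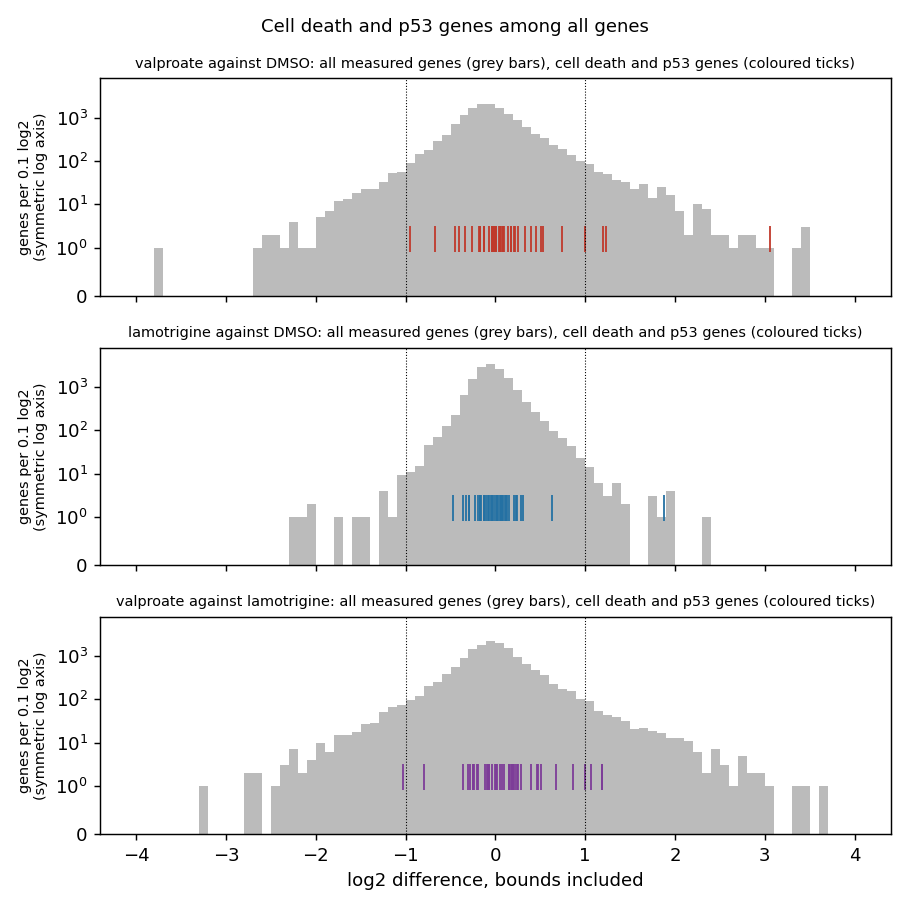
Number of genes per 0.1 of log2 difference (symmetric log axis) for all measured genes in each comparison, with 1 coloured tick per cell death or p53 gene and dotted lines at 2-fold. The ticks spread across the centre of the grey distribution, with Ripk3 at 3.05 in the upper panel and 1.87 in the middle panel far to the right.

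Lamotrigine against DMSO gave few differences among these genes. Of 40 measured, 1 passed 2-fold upwards (Ripk3) and 0 downwards, where 0.267% and 0.14% of all genes were, and 2 were at least 1.5-fold higher (Ripk3 and Hrk), where 1.89% were. At 1.5-fold 0 were lower, where 1.22% were. The median was 0.02, against -0.04 for all genes. By technical error, 6 of 39 genes were higher by more than 2 SD (15.4%, background 10%) and 7 were lower (17.9%, background 22.1%). The higher ones were Bbc3, Casp6, Fas, Hrk, Pmaip1 and Ripk1, and the lower ones Aifm1, Bak1, Bax, Bok, Casp1, Casp2 and Cycs.

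The drugs were also set against each other. Of 42 measured genes, 3 had a level 2-fold or more higher with valproate than with lamotrigine (Ripk3, Mlkl as a bound, and Perp), where 2.65% of all genes were, and 1 was at least 2-fold lower (Hrk). Pmaip1 was just short of it, at 0.99 in log2. At 1.5-fold 6 were higher and 2 lower, against 7.14% and 6.88% of all genes. In this comparison 25 genes were above 0 and 17 below, against 46% and 53.6% of all genes. By technical error 14 of 40 were higher (35%, background 22.8%) and 8 lower (20%, background 27.9%). The values share the valproate array with the comparison to DMSO, so they are no independent repeat of it.

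Lists of related genes were read in the same way. Of 22 other p53 target genes, 21 were measured for valproate against DMSO, with a median log2 difference of 0.32 and 18 above 0 (85.7%, against 40.6% of all genes). Of the 21, 0 were at least 2-fold higher, where 2.68% of all genes were. At 1.5-fold 4 were higher (19.0%, against 7.34% of all genes) and 0 lower (against 6.58%). Pidd1, which activates Casp2, was at 0.75, the DNA polymerase gene Polk at 0.72, the death receptor gene Tnfrsf10b at 0.60 and cyclin G1 (Ccng1) at 0.59. For lamotrigine against DMSO the same list had a median of 0.15 with 17 of 22 above 0 (77.3%, against 41.1% of all genes). Pidd1 gave 119 with valproate, 79.7 with lamotrigine and 70.8 with DMSO, and Ccng1 had 1229, 1055 and 817. Cdkn1a, the cell cycle inhibitor p21, is one of the 22 listed genes, falls outside the naming rule and is named here after its value was seen. It had 1156, 894 and 806.

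Other apoptosis genes had a median of -0.03 over 19 measured genes for valproate against DMSO. Of these, 0 were at least 2-fold apart, where 2.68% of all genes were higher and 1.67% lower. Farthest from 0 were Ppp1r13l, an inhibitor of p53, at 0.80, the mitophagy protein gene Bnip3 at 0.56 and Ppp1r13b, a p53 cofactor, at -0.44. Other death ligands and receptors had a median of -0.03 over 13 genes, from Traf1, an adaptor induced by NF-kappaB, at -0.81 and Nfkbia, the inhibitor of NF-kappaB, at -0.72, to Tnfaip3, a brake on receptor signalling, and Tnfrsf25, a death receptor, both at 0.58. Traf1 had 291 with valproate, 736 with lamotrigine and 509 with DMSO, which gave a log2 difference of -1.34 for valproate against lamotrigine.

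Other necroptosis, inflammasome and gasdermin genes had a median of 0.30 over 10 genes for valproate and -0.09 over 10 for lamotrigine against DMSO. The adaptor Ticam1 was at 0.42, the pore-forming Gsdmd at 0.44, and the cytokines Il33 at 0.41 and Il18 at -0.68 with valproate. Gsdmd turns to -0.02 with normexp correction. Interferon-stimulated genes had a median of 0.67 over 21 genes for valproate. Of these 21, 8 were at least 2-fold higher (38.1%, against 2.68% of all genes). Oas1a was at least 2.90 higher in log2, Bst2 was at 1.57, Psmb9 at 1.44 and Usp18 at 1.24. For lamotrigine the list had a median of 0.21 over 19 genes, with 0 at least 1.5-fold higher, where 1.89% of all genes were.

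**Figure D4:**
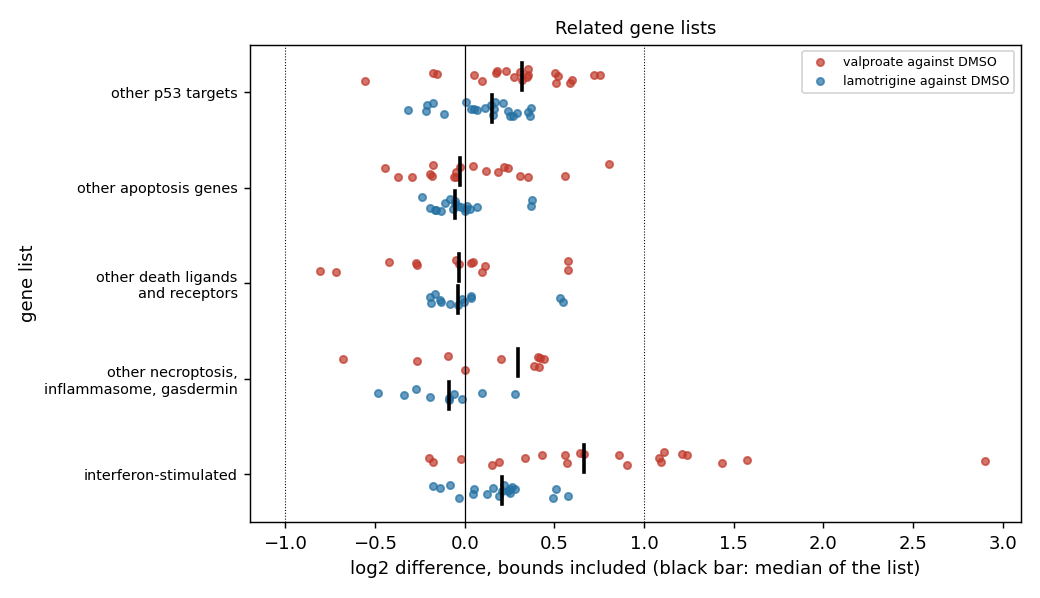
Log2 differences of single genes in 5 related lists for valproate against DMSO (red) and lamotrigine against DMSO (blue), with the median of each list as a black bar and dotted lines at 2-fold. For valproate the medians of other p53 targets (0.32) and interferon-stimulated genes (0.67) lie right of 0, and those of other apoptosis genes and of death ligands and receptors lie at -0.03.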

How the data were processed

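RNA of 3 cultures was measured on 3 single-colour Agilent arrays. Per the file headers, each spot's intensity was read with Feature Extraction 10.7.1.1, background-subtracted and detrended within its array, with probes annotated on mm9. A second, deposited table holds normalized intensity of the same arrays and served as an alternative. Its sorted columns are equal to within rounding, as quantile normalization gives, and its software is not given in the sources used here.

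Levels were log2 of the processed signal minus log2 of the array's 75th percentile over 59305 non-control spots. Outlier spots were left out, and spots of 1 probe averaged. The genes described here were found by the gene name on the array (67 probes). Other probes were named by RefSeq accession, symbol or older symbol, and 24300 of 55681 stayed unnamed. Each gene took its probe with the highest mean level. Of the genes described here 15 had several probes. Differences with bounds were computed as the results describe. They were tested on simulated data in which every array had the same detected probes, so the bounds themselves were not tested. All genes of the list are named, with up to 4 genes farthest from 0 of each related list, and marker genes only where stated. In 1 related list, 1 gene that this rule names is not reported here. The genes, lists and alternatives were chosen with earlier results of these data known. Python 3.11.15, pandas 2.3.3, numpy 2.4.6, R 4.3.3 and limma 3.58.1 (normexp, offset 50) were used.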

Additional observations from a re-analysis of the deposited data

How the results depend on the processing

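The results were recomputed under quantile normalization, centring on detected probes, spike-in scaling (6 of 10 probes, signal over 100), normexp correction, the values as the authors normalized them, no detection filter, a filter on all 3 arrays, averaging a gene's detected probes, naming by accession, outlier spots kept, and thresholds of 1.5-fold and 3-fold. Spike-in scaling adds 0.35 to each log2 difference of valproate against DMSO, 0.20 to lamotrigine against DMSO and 0.15 to valproate against lamotrigine, for genes detected on both arrays. With it the medians of the list were 0.39, 0.22 and 0.23, against 0.04, 0.02 and 0.09. The medians of all genes were 0.27, 0.16 and 0.12 with it, against -0.07, -0.04 and -0.03. In the list 13, 13 and 7 genes turned sign, none of them over 0.34 from 0 in the main values. Among them were Mcl1, Bcl2, Bad, Xiap, Trp63 and Trp53 for valproate against DMSO.

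For valproate against DMSO the 3 genes at least 2-fold higher became 5 with spike-in scaling (Bid and Mlkl added), 4 without the detection filter (Mlkl added), 2 with detection on all 3 arrays (Ripk3 left out), 5 at 1.5-fold and 1 at 3-fold, and the 0 lower became 2 at 1.5-fold. For lamotrigine against DMSO the 1 higher gene became 0 with normexp correction and with detection on all 3 arrays, which leaves out Ripk3, and 2 without the detection filter and at 1.5-fold. For valproate against lamotrigine the 3 higher became 5 with spike-in scaling, 1 with normexp correction, 1 with detection on all 3 arrays, 6 at 1.5-fold and 0 at 3-fold. The 1 lower, Hrk, became 0 with spike-in scaling, normexp correction and at 3-fold, and 2 without the detection filter and at 1.5-fold. Apart from 1.5-fold, the shares of all genes passing under these alternatives are not given here, so the changed counts have no background beside them. The cause of a changed count was not tested where the construction of the alternative does not show it. No paired analysis was possible because each treatment had 1 array. Low signal limits Ripk3, Mlkl and Casp8, as their technical SD shows.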
